A study of Mus musculus with 8 samples.

Results

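The nuclear genes of oxidative phosphorylation were taken as every row of the single-cell count tables whose symbol begins with Nduf, Uqcr, Atp5, Sdha, Sdhb, Sdhc or Sdhd, or with Cox followed by a digit from 4 to 8, together with Cycs and Cyc1. The rule gave 98 of 27998 gene rows. Of these, 83 encode subunits, with 36 in complex I, 4 in complex II, 9 in complex III, 19 in complex IV and 15 in complex V. Ndufa4 and its relative Ndufa4l2 were counted with complex IV, where the Ndufa4 protein resides. The names also took in Cycs (cytochrome c), Cox7a2l (a factor that joins complexes III and IV), 7 assembly factors of complex I, 4 of complex II, and Atp5s and Atp5sl, which RefSeq now lists as Dmac2l and Dmac2. The label therefore covers more than subunits, and the groups are described separately.

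The series has 8 samples, of which the 6 pull-downs of 5-hydroxymethylcytosine were not analysed here. The others are a WT-labelled and a TKO-labelled single-cell RNA library of mouse embryonic stem cells at day 5 of differentiation, with 1 library per group. The genotype is given as wild type for the WT-labelled and as a Tet-triple knockout for the TKO-labelled library. Both groups share the E14-NKX2-5-EmGFP line, a stem cell line carrying a fluorescent reporter of the cardiac gene Nkx2-5, growth on mitotically inactive fibroblast feeders, removal of leukemia inhibitory factor, embryoid bodies formed in hanging drops, and no treatment. The series concerns TET proteins, the enzymes that oxidise 5-methylcytosine, in differentiation toward the heart. The labels give neither the deleted sequences of Tet1, Tet2 and Tet3 nor a clone or pooling.

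Oxidative phosphorylation couples the oxidation of NADH and succinate to ATP synthesis in the inner mitochondrial membrane. Electrons enter through complex I or complex II, pass through complex III and cytochrome c to complex IV, where oxygen is reduced, and the proton gradient that results drives complex V, the ATP synthase. Complexes I, III, IV and V are built from nuclear and mitochondrially encoded subunits together, whereas complex II is wholly nuclear. Pluripotent stem cells are known for high glycolysis, and heart muscle is known for its dense respiratory chain.

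After filtering, the WT-labelled library held 4392 cells with 37529180 unique molecular identifiers (UMIs, each standing for 1 captured RNA molecule), and the TKO-labelled library held 3197 cells with 33503021. Median depth was 7849.5 UMIs per cell in WT-labelled and 9679 in TKO-labelled cells, and 21 barcode sequences occurred in both. Levels are UMIs divided by all UMIs of the library or cluster and scaled to the same total (CPM). Where a sentence gives a pair of levels without naming the libraries, the WT-labelled value stands first, and every ratio is TKO over WT. Intervals are exact 95% intervals that cover counting error only, and no comparison between the libraries has a replicate or a test, so genotype, library and culture cannot be told apart. Tet1 transcripts stood at 12.3 CPM in WT-labelled and 22.8 in TKO-labelled cells, Tet2 at 6.82 and 4.60, and Tet3 at 29.2 and 20.3. UMIs outside a deleted part check no label, so the libraries are named by their labels throughout. Cell makeup also differed: the pluripotency gene Pou5f1 was at 8.50 CPM against 101, the embryonic globin gene Hbb-bh1 at 4283 against 117, and Col1a1, a collagen of mesenchyme and of feeder fibroblasts, at 152 against 0.298. The libraries are therefore also compared within cell kinds.

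Summed over all members, nuclear respiratory transcripts stood at 29322 CPM in WT-labelled and 27531 CPM in TKO-labelled cells, a ratio of TKO over WT of 0.939 (interval 0.936 to 0.942). The difference was small and uneven across the chain. Complex I summed to 8499.6 and 7760.1 CPM, a ratio of 0.913 (0.908 to 0.918). Complex V was lower by a similar ratio, 0.911 (0.906 to 0.916), from 7808 and 7111 CPM. Complex IV had a ratio of 0.944 (0.939 to 0.949) and complex III one of 0.963 (0.955 to 0.971). Complex II, at 520 and 529 CPM, had a ratio of 1.02, and its interval of 0.996 to 1.04 includes 1. The genes outside the complexes went the other way. Assembly factors of complex I had a summed ratio of 1.34 (1.29 to 1.38) and cytochrome c one of 1.29.

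The lower sum of complex I rested in part on a few genes, that of complex V less so. Without Ndufv3, Ndufa5 and Ndufa3, the ratio of complex I was 0.959 (0.954 to 0.964), and without Atp5k that of complex V was 0.924 (0.919 to 0.930). These 4 genes were left out after their values had been seen. Ratios of single genes were read only for the 94 members that reached 50 UMIs over both libraries. Of these, 46 had a ratio above 1 and 48 one below, and their median log2 ratio was -0.02. The median over all 12770 genes with that minimum was 0.13, and 28 members lay above it. With the median of all genes set to 0, the 18 members between 0 and 0.13 therefore change direction. Over the 2635 genes with at least 50 CPM in both libraries together, 80 of them members, the median was lower, 0.07. Shares of genes past 1.5-fold were not counted over that set. Without the primitive erythroid-like cells, the median of the members was 0.04.

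At least 1.5-fold higher in the TKO-labelled library were 4 members, beside 20.5% of all genes tested. At least 1.5-fold lower were 8 members, beside 15.6% of all genes. With the median of all genes set to 0, the counts were 2 higher and 12 lower. In most members the libraries were close, and 57 of 94 lay within 1.2-fold. The share of all genes was not counted within 1.2-fold or with the median set to 0. The 8 lower members were Ndufv3, Ndufa5, Ndufa3 and Ndufb2 of complex I, Cox4i2 of complex IV, and Atp5k, Atp5l and Atp5j2 of complex V. The 4 higher members were Ndufa4l2 and Cox7a1, isoforms of complex IV with few UMIs, and the assembly factors Ndufaf4 and Ndufaf6.

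**Figure D1:**
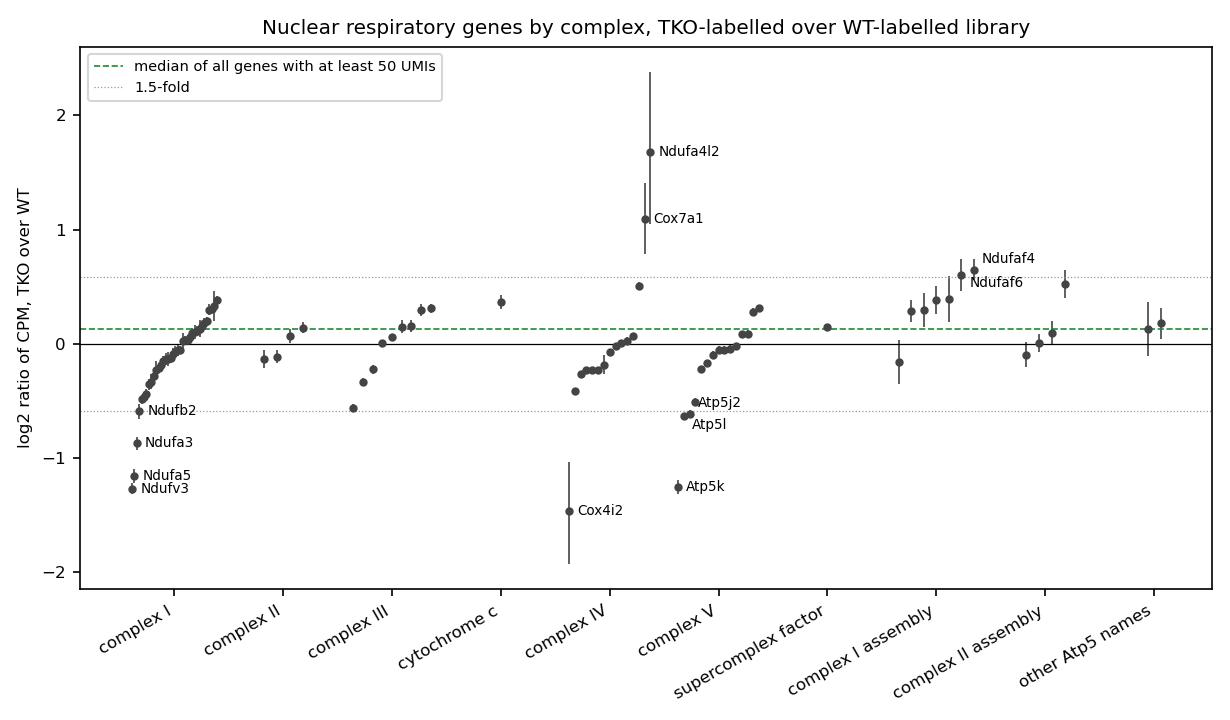
Log2 ratio of CPM in the TKO-labelled over the WT-labelled library for the 94 members with at least 50 UMIs, 1 point per gene with its 95% counting interval, grouped by complex. Most points lie within the dotted lines at 1.5-fold, the dashed line marks the median of all genes at 0.13, and the named points are the 12 members past 1.5-fold.

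In complex I, the lowest ratio belonged to Ndufv3, a small accessory subunit of the module that binds NADH. It stood at 376 CPM in WT-labelled and 156 CPM in TKO-labelled cells, a ratio of 0.416 (0.402 to 0.429). Ndufa5, an accessory subunit of the matrix arm, was at 208 and 93.4 CPM, a ratio of 0.449 (0.431 to 0.468). Ndufa3, a small subunit of the membrane arm, was at 189 and 103 CPM, a ratio of 0.547 (0.525 to 0.569), and Ndufb2 at 130.2 and 86.4 CPM, a ratio of 0.664. All 4 encode accessory subunits rather than the catalytic core.

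The core subunits of complex I were closer between the libraries and went in both directions. Ndufs1, the largest subunit with iron-sulphur clusters of the electron path, was at 23.6 CPM in WT-labelled and 29.7 CPM in TKO-labelled cells, a ratio of 1.26 (1.15 to 1.38). Ndufv2, another iron-sulphur subunit, had a ratio of 1.23 from 181 and 223 CPM. Ndufv1, which carries the flavin that takes electrons from NADH, was lower in the TKO-labelled library, at 76.7 and 65.4 CPM and a ratio of 0.852 (0.806 to 0.901). The highest ratio in complex I was that of Ndufab1, the mitochondrial acyl carrier protein, which also serves fatty acid and lipoate synthesis. It stood at 318 and 415 CPM, a ratio of 1.31 (1.27 to 1.34).

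The subunits of complex II, which is both succinate dehydrogenase of the citric acid cycle and an entry point for electrons, lay within 1.2-fold. Sdha, the flavoprotein, was at 73.2 CPM in WT-labelled and 66.7 in TKO-labelled cells, and Sdhd, a membrane anchor, at 142 and 131, ratios of 0.911 and 0.925. The other anchor Sdhc was at 113 and 119 CPM, and the iron-sulphur subunit Sdhb at 192 and 212 CPM, ratios of 1.05 and 1.10. The anchors thus differed in direction, as did the soluble subunits.

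Complex III held ratios on both sides of 1. Uqcr11, one of its small accessory subunits, had the lowest ratio, 0.679 (0.663 to 0.696), from 457 CPM in WT-labelled and 310.1 CPM in TKO-labelled cells. The other small subunits ranged from Uqcr10 and Uqcrq, with 0.793 and 0.858, to Uqcrh and Uqcrb, with 1.01 and 1.04. The subunits of the electron path were higher: Uqcrfs1, the Rieske iron-sulphur protein, had a ratio of 1.24 (1.21 to 1.28) from 248 and 308 CPM, and Cyc1, cytochrome c1, one of 1.23 from 168 and 206 CPM. The core proteins Uqcrc1 and Uqcrc2, which scaffold the complex, each had a ratio of 1.11, from 145 and 161 CPM for Uqcrc1 and from 130.4 and 145 CPM for Uqcrc2. Cycs, the mobile carrier between complexes III and IV and a trigger of apoptosis once released, was at 103 and 133 CPM, a ratio of 1.29 (1.23 to 1.345).

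In complex IV, Cox4i1, Cox5a and Cox5b encode nuclear subunits that surround the mitochondrially encoded core. Cox4i1 was at 1276 CPM in WT-labelled and 1339 CPM in TKO-labelled cells, a ratio of 1.05, and Cox5b at 299.6 and 305 CPM, a ratio of 1.02 with an interval of 0.990 to 1.05. Cox5a differed more, at 449 and 639 CPM and a ratio of 1.42 (1.40 to 1.45). Cox6c, at 722 and 542 CPM, had the lowest ratio in this complex among members with over 1000 UMIs, 0.750 (0.736 to 0.765), and was picked out after its value had been seen.

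The extremes of complex IV were alternative isoforms counted at low levels. Cox4i2, the form of subunit 4 known from lung and from cells low in oxygen, had 177 UMIs in WT-labelled and 57 in TKO-labelled cells, a ratio of 0.361 (0.263 to 0.489). Cox7a1, the isoform of heart and skeletal muscle, had 134 and 255 UMIs, a ratio of 2.13 (1.72 to 2.65). Ndufa4l2, a relative of Ndufa4 known as a target of hypoxia signalling, had 27 and 78 UMIs, a ratio of 3.24 (2.07 to 5.22). Cox4i2 overlaps Bcl2l1 and Ndufa4l2 overlaps Shmt2 in RefSeq, and whether counting used strand is not given in the sources used here, so reads of these pairs cannot be told apart. Other alternative isoforms were nearly absent: Cox8c had 3 and 0 UMIs, Cox7b2 6 and 2, Cox6a2 14 and 25, and Cox8b none in either library, which by the limit of 3 counts allows up to 0.0799 CPM in WT-labelled and 0.0895 CPM in TKO-labelled cells. These 4 missed the minimum of 50 UMIs.

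Complex V showed the lowest ratio in Atp5k, subunit e of the membrane part, which helps synthases pair into dimers. It was at 213 CPM in WT-labelled and 89.5 CPM in TKO-labelled cells, a ratio of 0.420 (0.403 to 0.438). Atp5l, subunit g, which lies next to it, was at 683 and 440.5 CPM, and Atp5j2, subunit f, at 771 and 505 CPM, ratios of 0.645 and 0.655. All 3 are small subunits of the membrane part. The catalytic head and its stalk varied: Atp5a1 (alpha) had a ratio of 1.06, Atp5c1 (gamma) one of 0.933, Atp5d (delta) one of 0.889 and Atp5b (beta) one of 0.859 (0.842 to 0.875), the last from 639 and 549 CPM. Atp5e (epsilon), the smallest of this part, was lower, at 506.5 and 356 CPM and a ratio of 0.703 (0.687 to 0.719). Highest was Atp5g2, which encodes 1 of the interchangeable precursors of the proton-carrying c ring, at 799.8 and 995 CPM and a ratio of 1.24 (1.22 to 1.26).

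The promoters of respiratory genes often hold the palindromic motif of nuclear respiratory factor 1, and sequences from members at both ends are shown to set that motif beside the ratios. RefSeq promoters (build GRCm38.p6, 250 bases before to 50 after the start) were matched for 81 members by symbol. The motif was written here as GCGCA, any base and GCGC and searched on both strands. It occurred in any promoter of 21 of these members (25.9%) and of 5.19% of the 27025 genes with a RefSeq promoter. The 3 stretches of 60 bases below lie upstream of the start, on the gene's strand, with the match in capitals. They are Atp5k at chr5:108434415-108434474 on the minus strand, Ndufaf4 at chr4:24897945-24898004 on the plus strand and Atp5g2 at chr15:102671055-102671114 on the minus strand. The match ends 40, 103 and 32 bases before the start.
Atp5k: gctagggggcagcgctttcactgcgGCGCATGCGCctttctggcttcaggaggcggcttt
Ndufaf4: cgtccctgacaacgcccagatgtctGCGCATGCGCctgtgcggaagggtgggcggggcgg
Atp5g2: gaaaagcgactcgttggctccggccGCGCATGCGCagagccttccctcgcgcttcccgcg
The same letters thus stand before a gene with a ratio of 0.420 and before genes with ratios of 1.57 and 1.24. Among members with at least 50 UMIs, the median log2 ratio was -0.10 for the 21 with the motif and -0.03 for the 58 without it. The ETS motif CCGGAAGT occurred in promoters of 5 members (6.17%, against 4.31% of all genes) and the YY1 motif AAGATGGC in those of 11 (13.6%, against 3.19%). Uqcr11, with a ratio of 0.679, and Atp5h, with 1.21, both held the ETS letters. Ndufa3 and Atp5j2, with 0.547 and 0.655, held the YY1 letters, as did Atp5sl and Ndufb8, with 1.13 and 1.07. The median log2 ratio was -0.13 with the ETS motif and -0.05 without it, and -0.02 with the YY1 motif and -0.05 without it. The letters of the NRF1, ETS and YY1 motifs share no common core, and a match is a description of the sequence only.

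Assembly factors, which build the complexes without staying in them, were mostly higher in TKO-labelled cells, with 9 of the 11 among the members above a ratio of 1 and a summed ratio of 1.201 (1.17 to 1.23). Ndufaf4 was at 46.3 CPM in WT-labelled and 72.7 CPM in TKO-labelled cells, a ratio of 1.57 (1.47 to 1.67). Ndufaf6 was at 19.8 and 30.03 CPM, a ratio of 1.52 (1.38 to 1.67). Sdhaf3, of complex II, was at 26.1 and 37.5 CPM, a ratio of 1.44 (1.32 to 1.57). The lowest in each group were Ndufaf7, a methyltransferase, with a ratio of 0.897, and Sdhaf1, with 0.937, and both intervals include 1. Set beside the median of all genes, which is a ratio of 1.10, the excess of most of these factors is smaller. Cox7a2l, the supercomplex factor, had a ratio of 1.11 from 862 and 954 CPM, and Atp5s and Atp5sl ratios of 1.09 and 1.13.

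The mitochondrially encoded partners went the other way from the nuclear subunits. Their 13 transcripts summed to 34937 CPM in WT-labelled and 41866 CPM in TKO-labelled cells, a ratio of 1.198 (1.195 to 1.201), against 0.929 for the 83 nuclear subunits. The exceptions were among the shortest. mt-Nd3, a complex I core subunit, was at 422 and 228 CPM, a ratio of 0.540 (0.526 to 0.555), and mt-Atp8, of complex V, at 17.3 and 13.1 CPM, a ratio of 0.755. The 4 genes of 204 to 519 bases had log2 ratios from -0.89 to 0.15, and the 9 genes of 681 to 1824 bases from 0.12 to 0.49, with mt-Nd2 highest at a ratio of 1.40. Transcript lengths of the nuclear genes were not used here, and whether length takes part in the low ratios of the small nuclear subunits was not tested. Many respiratory genes also have processed pseudogenes with near-identical sequence, and how reads shared with them were counted is not given in the sources used here.

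Genes of the wider pathway were taken from lists that do not use the name rule. Of 36 assembly factors not among the members, 35 had at least 50 UMIs, with a median log2 ratio of 0.13, and 2 were past 1.5-fold higher and 3 lower, where 20.5% and 15.6% of all genes were. Coa7 and Sco2, which serve complex IV assembly, had ratios of 1.67 and 1.65, and Ttc19, of complex III, one of 1.47. The 3 lower were all factors of complex IV: Cox19 at 169 CPM in WT-labelled and 92.1 CPM in TKO-labelled cells, Cox17, a copper chaperone, at 82.2 and 47.5 CPM, and Pet100 at 68.1 and 39.9 CPM. Their ratios were 0.545, 0.578 and 0.586. Among regulators of respiratory genes, 18 of 23 (22 in the tables) had at least 50 UMIs, with a median of 0.24, and 4 were past 1.5-fold higher, a share near the 20.5% of all genes, and 1 lower, beside 15.6%. Polg2, a subunit of the mitochondrial DNA polymerase, had a ratio of 1.85, Esrra, an orphan nuclear receptor, one of 1.66 and Tfb2m, a mitochondrial transcription factor, one of 1.62. Lowest were Slirp, which stabilises mitochondrial mRNA, at 0.646, then Myc at 0.749 and Yy1 at 0.889.

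None of the 17 genes of the citric acid cycle and pyruvate dehydrogenase was past 1.5-fold, beside 20.5% of all genes higher and 15.6% lower, and their median log2 ratio was 0.13. They ranged from Suclg1, Dlst and Pdha1 with ratios of 0.920, 0.924 and 0.925 to Idh3g, Dld and Pdhb with 1.21, 1.32 and 1.45. Of the 19 genes of the ATP synthase inhibitor, carriers and related proteins, 15 passed the minimum with a median of 0.09, and 2 were past 1.5-fold higher and none lower, beside the same 20.5% and 15.6%. Atpif1, the inhibitor of the synthase, was at 1002 CPM in WT-labelled and 713 CPM in TKO-labelled cells, a ratio of 0.711, and the channel Vdac1 and the hypoxia-induced Higd1a had ratios of 0.677 and 0.774. Chchd10, of the cristae junctions, was at 50.6 and 106 CPM, a ratio of 2.10, Slc25a5, an ADP/ATP carrier, had a ratio of 1.30, and Ckmt1, mitochondrial creatine kinase, had 9 and 59 UMIs, a ratio of 7.34 (3.62 to 16.8). Of 77 mitochondrial ribosomal proteins, a list added after the data had been seen, 76 passed with a median of 0.20, 58 of them higher. Only Mrps25 and Mrps34 were past 1.5-fold, again beside 20.5% and 15.6% of all genes, with ratios of 1.68 and 1.64, and Mrpl47 followed with 1.39. Lowest were Mrpl52, Mrps16 and Mrpl33, with 0.753, 0.790 and 0.8001.

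Cells of both libraries were then clustered together without the members and without mitochondrially encoded genes, and 18 clusters were found. Clusters carry a cell kind only where at least 3 of their 10 leading genes are markers of it. Most held cells of mainly 1 library, so that a cluster may reflect its library as well as a cell kind. Counting only clusters with at least 20 cells of a library, 13 WT-labelled and 11 TKO-labelled groups of cells could be measured.

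The summed level of the members differed 1.41-fold between the highest and the lowest of these 24 groups. It was highest in myeloid and megakaryocyte-like cells (cluster 17), at 34075 CPM (33550 to 34607), and in WT-labelled primitive erythroid-like cells (cluster 9), at 33701 CPM (33520 to 33883), whose intervals overlap. Cardiomyocyte-like cells (cluster 4) followed, at 32885 CPM in 30 WT-labelled cells and 30295 CPM in 559 TKO-labelled cells. TKO-labelled erythroid-like cells of cluster 9 were at 31852 CPM (31080 to 32638), from 21 cells. On the scale of all UMIs, blood and heart muscle kinds thus stood at the top. Matrix-rich mesenchyme-like cells (cluster 1) lay next to the TKO-labelled cardiomyocyte-like cells at 30347 CPM, where intervals again overlap. Erythroid-like cells of the smaller cluster 15, whose median doublet score was 0.939, the highest of any cluster, were at 30122 CPM.

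In the middle of the order, endothelial-like cells (cluster 11) were at 29004 CPM in WT-labelled and 27056 CPM in TKO-labelled cells. Pluripotent-like cells led by Dppa5a, Zfp42 and Dppa3, genes of the naive state (cluster 18) were at 29852 and 27986 CPM, and those with the formative gene Pou3f1 (cluster 10) at 28602 CPM in the TKO-labelled library. Mesothelium-like cells (cluster 3) were at 28232 CPM, head and paraxial mesoderm-like cells (cluster 7) at 28112 CPM, and lateral mesoderm-like cells (cluster 8) at 27293 and 28662 CPM. On this scale the pluripotent-like and mesoderm-like kinds lay close together. Without ribosomal protein, mitochondrially encoded and globin genes in the total, the naive pluripotent-like cells lay higher, at 52823 CPM in WT-labelled and 47623 CPM in TKO-labelled cells. Mesothelium-like cells were then at 42079 CPM, and lateral mesoderm-like cells at 45126 CPM in WT-labelled and 44737 CPM in TKO-labelled cells. Formative pluripotent-like cells of cluster 10, at 45191 CPM, still lay beside the lateral mesoderm-like cells. Cardiomyocyte-like cells were at 51107 CPM in WT-labelled and 46531 CPM in TKO-labelled cells, each below the naive pluripotent-like cells of the same library. The TKO-labelled value also lay below that of WT-labelled endothelial-like cells, 47027 CPM.

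On the scale of all UMIs, extraembryonic endoderm-like cells and TKO-labelled definitive endoderm-like cells were lowest. Extraembryonic endoderm-like cells (cluster 13) stood at 24161 CPM (23922 to 24402) and definitive endoderm-like cells (cluster 2) at 27247 CPM in 35 WT-labelled and 25690 CPM in 953 TKO-labelled cells. Among unnamed clusters, cluster 12, of low depth with a median of 3922 UMIs in WT-labelled cells, was at 25715 CPM, and cluster 14, led by Sox17, Ctsc and Cer1, at 26016 CPM. Clusters 5 (led by Alx1 and Col23a1), 16 (led by T) and 6 (led by Pitx1) were at 27438, 28972 and 29252.5 CPM. Single cells spread widely around these sums: the 10th to 90th percentile of cells ran from 18986 to 29269 CPM in extraembryonic endoderm-like and from 25318 to 40351 CPM in WT-labelled erythroid-like cells. The lowest place depended on the total. Without ribosomal protein, mitochondrially encoded and globin genes, cluster 14 was lowest at 37139 CPM, then TKO-labelled definitive endoderm-like cells at 38839 CPM. Extraembryonic endoderm-like cells followed at 39850 CPM.

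**Figure D2:**
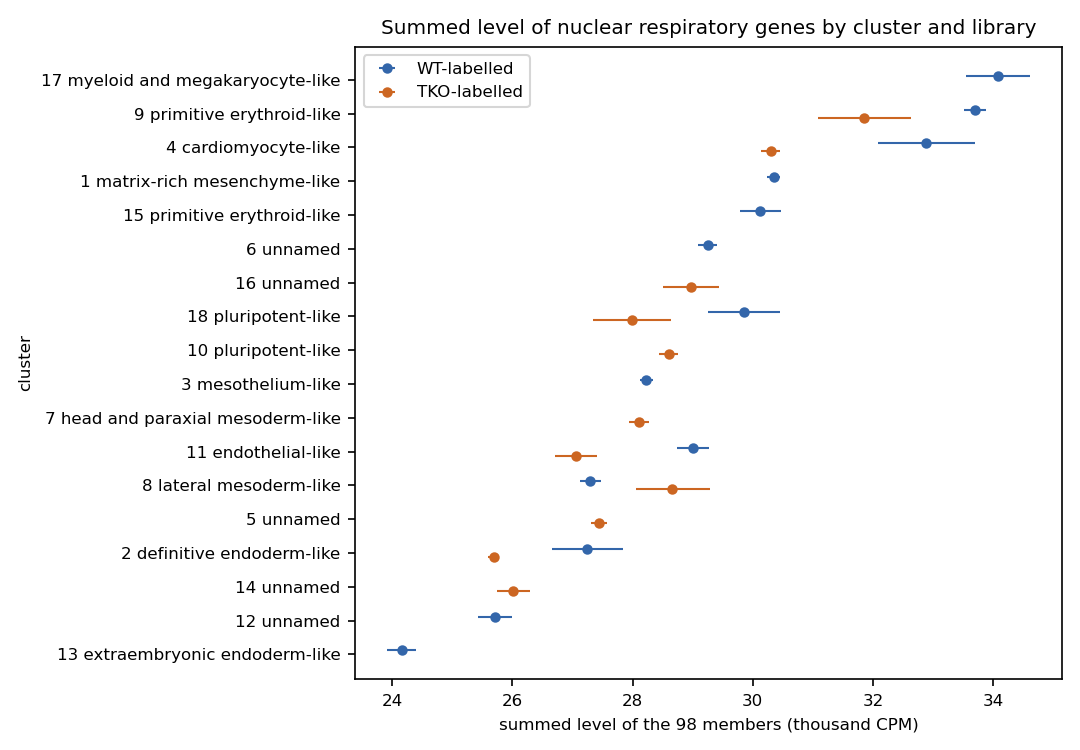
Summed CPM of the 98 members in each cluster with at least 20 cells of a library, with 95% counting intervals, WT-labelled in blue and TKO-labelled in orange. Myeloid and megakaryocyte-like and primitive erythroid-like cells lie highest and extraembryonic endoderm-like cells, at 24161 CPM, lowest.

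The complexes did not follow a single order. Complex IV was highest in naive pluripotent-like cells of the WT-labelled library, at 10057 CPM, in WT-labelled erythroid-like cells of cluster 9, at 9924 CPM, and in myeloid and megakaryocyte-like cells, at 9813 CPM, against 6834 CPM in extraembryonic endoderm-like cells. Complex II ran differently and spread most, 1.96-fold: it was lowest in those naive pluripotent-like cells, at 326 CPM, and highest in cluster 16, led by T, at 638 CPM and in cardiomyocyte-like cells at 614 and 608 CPM. The 31 WT-labelled naive pluripotent-like cells thus combined the highest complex IV with the lowest complex II sum of any group. Their intervals, 9712 to 10412 CPM for complex IV and 266 to 395 CPM for complex II, cover the values of other groups. TKO-labelled naive pluripotent-like cells had 8806 CPM for complex IV, below both blood kinds named above, and 372 CPM for complex II. Complexes I, III and V were lowest in WT-labelled extraembryonic endoderm-like, TKO-labelled naive pluripotent-like and WT-labelled extraembryonic endoderm-like cells, at 6587, 2797 and 5936 CPM. Ribosomal protein genes took 39.5% of UMIs in the naive pluripotent-like WT-labelled cells and 23.7% in cluster 16, and their part in these levels was not tested.

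Single members varied more than the sums. Over clusters of at least 50 cells of a library, the highest level was a median of 2.00 times the lowest for the 88 members with at least 1000 UMIs, and 46 exceeded 2-fold and 15 exceeded 3-fold. These ranges were not counted over all genes, so they do not set the members apart from other genes. In the WT-labelled library, 46 of 94 members were lowest in extraembryonic endoderm-like cells and 24 in the low-depth cluster 12, while 35 were highest in myeloid and megakaryocyte-like and 30 in erythroid-like cells of cluster 9. In the TKO-labelled library, 31 were highest in cluster 16 and 24 in cardiomyocyte-like cells, and 25 were lowest in cluster 14.

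The members described next were picked for their wide ranges after the values had been seen. Ndufv3, the widest of complex I, ran from 84.4 CPM in cluster 14 to 209 CPM in cardiomyocyte-like cells of the TKO-labelled library, and from 158 CPM in extraembryonic endoderm-like to 455 CPM in matrix-rich mesenchyme-like cells of the WT-labelled library. Ndufa8 had its highest levels in endothelial-like cells of both libraries, at 389 CPM in WT-labelled and 246 CPM in TKO-labelled cells, against medians over clusters of 164 and 166 CPM. Erythroid-like cells of cluster 9 in the WT-labelled library held the highest levels of Atp5b, at 1208 CPM against a median of 606 CPM, of Ndufs3, at 294 against 119.8 CPM, and of Uqcrc2, at 232 against 121 CPM. At the other end, Uqcrh, the hinge protein of complex III, differed only 1.32-fold and Ndufa4 1.39-fold between the highest and the lowest cluster.

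Isoform shares gave a second view by cell kind. Shares are UMIs of 1 isoform over those of its group, and since UMIs were not divided by transcript length they are compared across cells only. Cox6b2, the isoform of complex IV known from testis and sperm, made up 9.25% of Cox6b UMIs in WT-labelled and 9.73% in TKO-labelled cells. Its share was highest in naive pluripotent-like cells, at 25.2% (exact interval 20.1 to 30.9) in WT-labelled and 27.3% (21.2 to 34.2) in TKO-labelled cells. Formative pluripotent-like cells of cluster 10 had 15.5% (14.3 to 16.8) and cluster 16, led by T, 16.6%. Both libraries thus held the highest share in the naive pluripotent-like cells. In the WT-labelled library the interval of these cells covers the share of erythroid-like cells of cluster 9, given next.

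Erythroid-like cells of cluster 9 also had a high Cox6b2 share, 20.9% (19.7 to 22.2) in the WT-labelled library, and 12.1% (7.67 to 18.0) in 21 TKO-labelled cells. Myeloid and megakaryocyte-like cells had 13.8%. The share was lowest in cluster 14, at 4.77%, in WT-labelled endothelial-like cells, at 5.11%, in WT-labelled cardiomyocyte-like cells, at 5.43% on 10 UMIs, and in matrix-rich mesenchyme-like cells, at 5.95%. Cox6b2 itself was at 216 CPM in erythroid-like and 41.5 CPM in endothelial-like cells of the WT-labelled library.

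The c ring genes encode the same mature protein behind different import sequences, and their balance also followed cell kind. Atp5g1 took 28.5% of Atp5g UMIs in WT-labelled and 24.9% in TKO-labelled cells, Atp5g2 50.3% and 56.6%, and Atp5g3 21.2% and 18.5%. In erythroid-like cells of cluster 9 the Atp5g1 share was 40.0% (38.6 to 41.3) in WT-labelled and 43.6% (38.7 to 48.6) in TKO-labelled cells, and Atp5g2 took 39.9% and 37.7%. Naive pluripotent-like cells resembled them in Atp5g1, at 39.6% and 39.2%, and had the lowest Atp5g3 shares, at 10.6% and 11.9%. Cardiomyocyte-like cells lay at the other end in the TKO-labelled library, with 21.9% Atp5g1 (21.0 to 22.7). In cardiomyocyte-like cells of the WT-labelled library the Atp5g1 share was 25.6%, and its interval of 21.0 to 30.7 covers the TKO-labelled value.

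**Figure D3:**
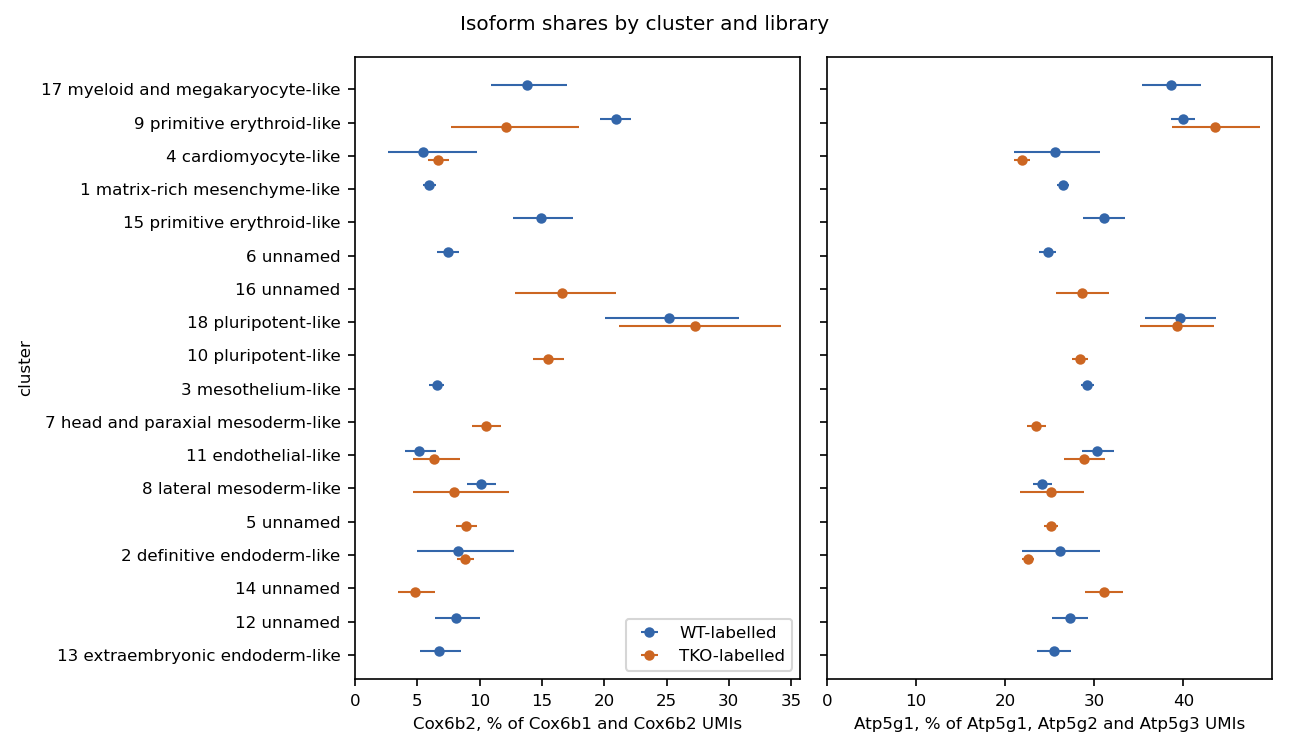
Share of Cox6b2 among Cox6b1 and Cox6b2 UMIs (left) and of Atp5g1 among Atp5g1, Atp5g2 and Atp5g3 UMIs (right), in percent, by cluster and library, with exact 95% binomial intervals. Naive pluripotent-like (cluster 18) and primitive erythroid-like cells (cluster 9) have the highest Atp5g1 shares in both libraries, between 39.2% and 43.6%.

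Muscle isoforms were scarce, though not evenly spread. Of 39 UMIs of Cox6a2, the heart and skeletal muscle form, 25 came from cardiomyocyte-like cells, where it made up 6 of 81 Cox6a UMIs (7.41%, 2.77 to 15.4) in WT-labelled and 19 of 2224 (0.854%, 0.515 to 1.33) in TKO-labelled cells. WT-labelled erythroid-like cells of cluster 9 had 6 of 2257 (0.266%), and Cox6a2 overlaps Itgad in RefSeq. Cox7a1 was not limited to muscle: its share of the Cox7a1 and Cox7a2 UMIs was 2.65% and 2.57% in cardiomyocyte-like cells, 5.38% and 4.68% in naive pluripotent-like cells and 3.78% in extraembryonic endoderm-like cells. Matrix-rich mesenchyme-like cells had 0.146%. Cox7a1 had 134 and 255 UMIs in the whole libraries, and its naive pluripotent-like shares come from 31 and 20 cells. The WT-labelled cardiomyocyte-like share comes from 30 cells, so muscle and naive kinds are not ranked by it. Cox4i2 reached 1.43% of Cox4i UMIs in myeloid and megakaryocyte-like cells on 11 UMIs and 0.989% in WT-labelled lateral mesoderm-like cells, against 0.0165% in WT-labelled erythroid-like cells of cluster 9. Ndufa4l2 had 28 of its 78 TKO-labelled UMIs in head and paraxial mesoderm-like cells, a share of 0.821% of the Ndufa4 and Ndufa4l2 UMIs. RNA free in the suspension was not estimated, and its part in counts this small was not tested.

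In 6 clusters both libraries had at least 20 cells, which allowed the libraries to be set side by side within a cell kind. The ratio of TKO over WT for all members was 0.943 in definitive endoderm-like, 0.921 in cardiomyocyte-like, 0.945 in erythroid-like (cluster 9), 0.933 in endothelial-like and 0.937 in naive pluripotent-like cells. It was 1.05 (1.03 to 1.07) in lateral mesoderm-like cells, where only 33 cells were TKO-labelled. The exception depended on the scaling: without ribosomal protein, mitochondrially encoded and globin genes in the total, the lateral mesoderm-like ratio was 0.991, and with the median of all genes of that cluster set to 0 it was 0.956. In the other 5 clusters the ratio was below 1 under all 3 scalings. The mitochondrially encoded genes were higher in the TKO-labelled cells of all 6, with ratios from 1.11 in naive pluripotent-like to 1.51 in erythroid-like cells.

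Endothelial-like cells, with 189 WT-labelled and 69 TKO-labelled cells, were the cluster with the most cells in its smaller library. Of 86 members with at least 50 UMIs there, 1 was at least 1.5-fold higher in TKO-labelled cells, beside 13.7% of all genes tested in that cluster, and 9 were at least 1.5-fold lower, beside 10.9%. Lowest was Atp5k, at 207 CPM in WT-labelled and 68.0 CPM in TKO-labelled cells, a ratio of 0.328 (0.244 to 0.435), then Ndufa5 with 0.562 and Atp5l with 0.592. Highest were Ndufaf4, at 57.8 and 93.8 CPM and a ratio of 1.62, then Sdhaf3 with 1.45 and Ndufb3 with 1.43. Atp5k, Ndufa5, Atp5l and Ndufaf4 were also past 1.5-fold in the whole libraries.

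Counts in the other clusters were thinner. Past 1.5-fold were 4 members higher and 8 lower of 92 in definitive endoderm-like cells, beside 18.0% and 17.1% of all genes, and 3 higher and 9 lower of 91 in cardiomyocyte-like cells, beside 22.5% and 16.7%. In erythroid-like cells 6 were higher and 6 lower of 89, beside 28.6% and 12.8%. In naive pluripotent-like cells 4 were higher and 6 lower of 71, beside 12.9% and 11.1%. Lateral mesoderm-like cells differed in having more members higher than lower, 8 against 2 of 88, beside 18.0% and 11.4%.

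Few of the members at the ends recurred across these clusters. In definitive endoderm-like cells the lowest were Cox7a1, on 4 WT-labelled UMIs, Atp5k with a ratio of 0.432 and Atp5e with 0.537, and the highest were Ndufaf5, on 1 WT-labelled UMI, Ndufaf1 with 1.86 and Ndufaf6 with 1.85. In cardiomyocyte-like cells the lowest were Atp5k with 0.397, Ndufa5 with 0.505 and Ndufv3 with 0.550, and the highest Ndufaf2, Sdhaf3 and Sdhaf1, with 2.52, 2.18 and 2.16 on 4 or 5 WT-labelled UMIs each. In lateral mesoderm-like cells Atp5k, Ndufa3 and Ndufaf6 were lowest, with 0.404, 0.541 and 0.656, and Atp5sl, Ndufs1 and Sdhaf3 highest, with 2.33, 2.15 and 2.00. In erythroid-like cells Ndufa3, Cox6b2 and Atp5k were lowest, with 0.333, 0.479 and 0.534, and Sdhaf3, Ndufaf4 and Ndufb10 highest, with 2.52, 2.38 and 1.69. In naive pluripotent-like cells Atp5k, Ndufb11 and Uqcrb were lowest, with 0.343, 0.531 and 0.605, and Ndufs7, Uqcrc1 and Atp5a1 highest, with 1.70, 1.68 and 1.67. Atp5k was among the 3 lowest in all 6 clusters. Sdhaf3 was among the 3 highest in endothelial-like, cardiomyocyte-like, lateral mesoderm-like and erythroid-like cells. It stood at only 26.1 and 37.5 CPM in the whole libraries. The smaller library of these clusters held from 196930 to 852743 UMIs, so its ratios there rest on few Sdhaf3 UMIs.

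The low members of the whole libraries behaved differently within clusters. Atp5k had ratios from 0.328 to 0.534 over the 6 clusters, and every upper interval bound was below 1. Uqcr11 had ratios from 0.641 to 0.788, again with every bound below 1. Ndufv3 and Ndufa5, the lowest members of complex I in the whole libraries, came closer to 1 in lateral mesoderm-like cells, at 0.963 (0.772 to 1.19) and 0.884 (0.640 to 1.19). Ndufv3 also differed among WT-labelled kinds, from 158 CPM in extraembryonic endoderm-like to 455 CPM in matrix-rich mesenchyme-like cells, and the latter cluster held 1282 WT-labelled and no TKO-labelled cells. Cox5a was above 1 in all 6, from 1.09 to 1.40, and its interval excluded 1 only in lateral mesoderm-like and erythroid-like cells. Cycs ranged from 0.804 in naive pluripotent-like to 1.61 in erythroid-like cells.

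The levels in every cluster of at least 50 cells were compared for overlap between the 10 WT-labelled and 8 TKO-labelled clusters, a comparison added after the data had been seen. In 90 of 94 members the ranges overlapped. Below every WT-labelled cluster in every TKO-labelled one were 3 members, beside 0.517% of all genes tested, and above in every one was 1 member, beside 1.5% of all genes. Atp5k ran from 161 to 249 CPM over WT-labelled and from 68.0 to 98.7 CPM over TKO-labelled clusters. Ndufa3 ran from 163 to 215 CPM and from 87.1 to 118 CPM, and Uqcr11 from 403 to 555 CPM and from 277 to 372 CPM. These 3 genes were thus lower across cell kinds that have little in common. Clusters of 1 library share that library, so recurrence across them is no replication. Ndufab1 was the member above, from 258 to 400.9 CPM over WT-labelled and from 401 to 486 CPM over TKO-labelled clusters, and these ranges all but touch. With a clustering resolution of 1.2 in place of 0.8 the same 3 genes were below and none above, and with 0.4 there were 5 below and 4 above. The share of all genes was not counted at those resolutions. The mitochondrially encoded mt-Nd3 behaved like Atp5k, from 358 to 669.9 CPM over WT-labelled and from 207 to 244 CPM over TKO-labelled clusters.

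**Figure D4:**
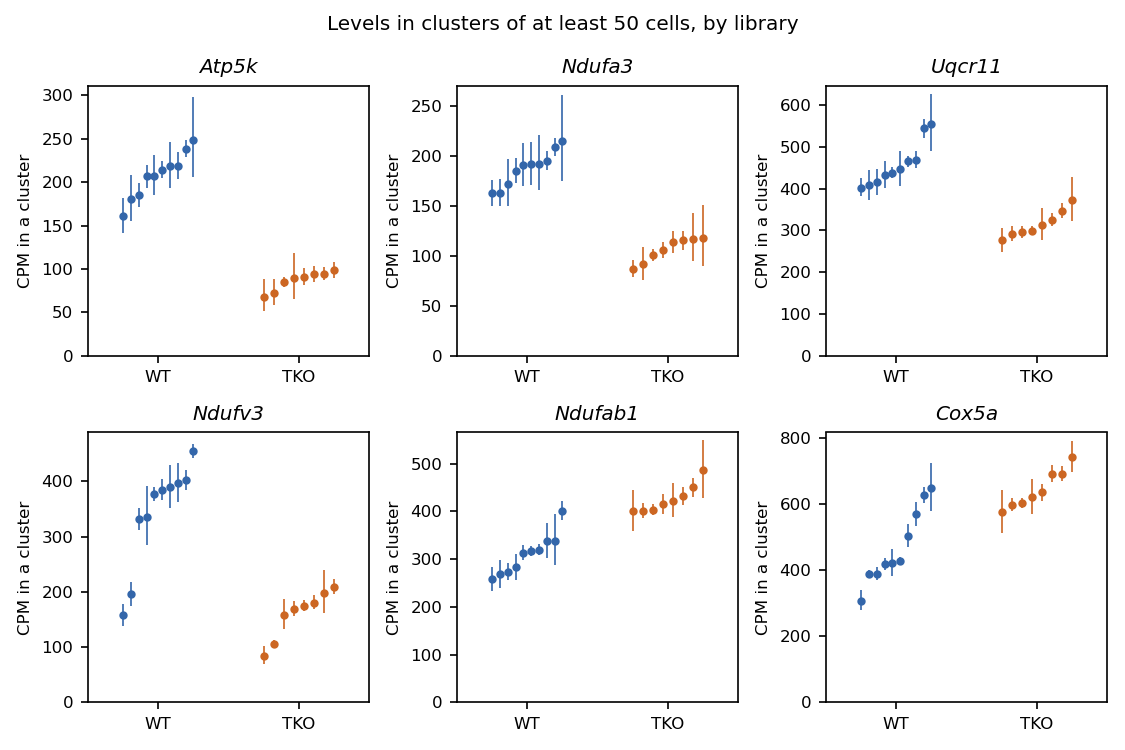
CPM with 95% counting intervals of 6 members in each cluster of at least 50 cells, 1 point per cluster, sorted by level within the WT-labelled (blue) and the TKO-labelled (orange) library. Atp5k, Ndufa3 and Uqcr11 do not overlap between libraries, Ndufab1 all but touches, and Ndufv3 and Cox5a overlap.

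The balance of mitochondrially encoded over nuclear transcripts differed by kind and by library. In the whole libraries, nuclear members had 0.839 times the UMIs of the 13 mitochondrially encoded genes in WT-labelled and 0.658 times in TKO-labelled cells. By cluster, mitochondrially encoded over nuclear transcripts ran from 0.877 in WT-labelled erythroid-like cells, with 29566 CPM of mitochondrially encoded transcripts, to 1.73 in extraembryonic endoderm-like cells, with 41762 CPM. Over TKO-labelled clusters it ran from 1.32 in cardiomyocyte-like cells to 1.78 in cluster 14. Cardiomyocyte-like and erythroid-like cells had the lowest values of their library. The share of mitochondrially encoded RNA can move with cell damage, and its part in this balance was not tested.

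**Figure D5:**
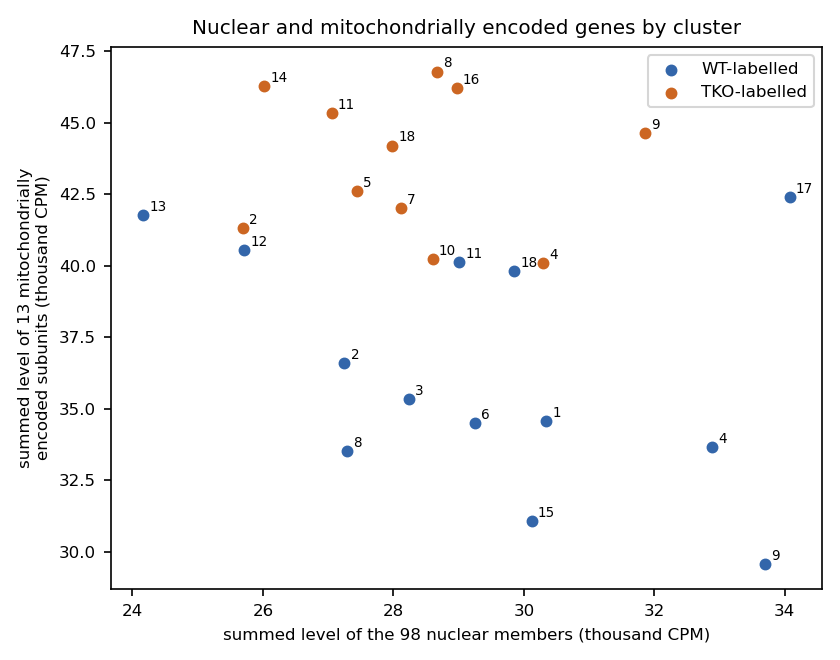
Summed CPM of the 98 nuclear members (horizontal) and of the 13 mitochondrially encoded subunits (vertical) in each cluster with at least 20 cells of a library, numbered by cluster, WT-labelled in blue and TKO-labelled in orange. TKO-labelled clusters lie at 40107 CPM or more on the vertical axis, and the lowest WT-labelled point is cluster 9 at 29566 CPM.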

How the data were processed

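For each single-cell library the authors deposited a table of raw counts with genes in rows and cells in columns, read here as UMI counts. The submitters' processing notes list Seurat 3.0 and mm10 but assign them no role; aligner, counter, chemistry and earlier filters: not given in the sources used here. The TKO-labelled table named 3224 barcodes but held 3223 values per row, so cells were read by position. In 116 row names, none of a member, the tables differed, in the examples looked at by a digit after a hyphen, and rows were matched by position. Total counts before filters were 37537946 (WT-labelled) and 33602635 (TKO-labelled).

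Cells with over 15% mitochondrial UMIs were removed (3 and 26). Doublets were scored, and none were removed. Counts were summed per library or cluster and divided by the total (CPM). Ratios carry exact binomial intervals and levels exact Poisson intervals. No test was made with 1 library per group, and p-values are not given. Members needed 50 UMIs over both libraries for ratios and counts, and log2 ratios used a prior count of 0.5. Clusters came from 2000 variable genes, 30 components, 15 neighbours and Leiden resolution 0.8 (scanpy 1.11.5, igraph 0.11.9, scikit-learn 1.9.0, scipy 1.17.1), and the script was tested on simulated data.

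The members and lists were chosen with earlier results of these data known. Named are members past 1.5-fold, the highest and lowest ratio per complex, the isoform groups, the core subunits, the 3 at each end of other lists, and the 3 at each end within shared clusters. Among the core subunits, 1 result is not reported here.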

Additional observations from a re-analysis of the deposited data

How the results depend on the processing

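No paired analysis was possible because each group has 1 single-cell library, which also leaves no library to leave out. The ratios of all members and of complexes I, III, IV and V in the whole libraries stayed below 1 under every scaling and cell filter tried for them, and complex II did not keep its side. With the median of all genes set to 0, which shifts log2 ratios by 0.13, the ratio was 0.856 for all members, 0.833 for complex I, 0.927 for complex II, 0.878 for complex III, 0.861 for complex IV and 0.831 for complex V, and the median log2 ratio was -0.15. With a total that leaves out ribosomal protein, mitochondrially encoded and globin genes, these ratios were 0.915, 0.890, 0.991, 0.939, 0.920 and 0.888. Without primitive erythroid-like cells, all members had 0.956, and complexes I, III, IV and V 0.923, 0.990, 0.977 and 0.922. Without the 6% of cells with the highest doublet scores, an alternative chosen after seeing the data, all members had 0.942 and complex I 0.918. With each cell weighted alike, all members had 0.942 and complex III 0.973. Leaving out Ndufv3, Ndufa5 and Ndufa3 gave 0.959 for complex I, and leaving out Atp5k gave 0.924 for complex V, both chosen after seeing the data.

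Members past the threshold numbered 19 higher and 18 lower at 1.2-fold and 2 higher and 4 lower at 2-fold, and 2 higher with the median of all genes set to 0. Across clusterings chosen after seeing the data, members in which every TKO-labelled cluster was above numbered 4 at a resolution of 0.4 and 0 at 1.2, and 5 were below at 0.4. For none of these settings was the share of all genes counted, so these counts do not set the members apart.

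Levels by cell kind are given here over the level of the same whole library. With the total that leaves out ribosomal protein, mitochondrially encoded and globin genes, WT-labelled endothelial-like cells went from 0.989 to 1.02 and TKO-labelled ones from 0.983 to 1.00, which reverses their direction, and values moved to 1.31 in WT-labelled erythroid-like, 1.11 in TKO-labelled cardiomyocyte-like, 1.08 in TKO-labelled pluripotent-like, 0.868 in WT-labelled extraembryonic endoderm-like and 0.924 in TKO-labelled definitive endoderm-like cells. Cells picked by a marker gate gave 1.09 for erythroid-like, 1.06 for cardiomyocyte-like, and 0.968 and 0.967 for WT-labelled and TKO-labelled endothelial-like cells. The cardiomyocyte-like value was 1.04 at a resolution of 0.4, where the cluster held 1540 in place of 559 TKO-labelled cells. With each library clustered alone, WT-labelled extraembryonic endoderm-like cells had 0.841, and no TKO-labelled cluster was named definitive endoderm-like, so no value could be given. A TKO-labelled cluster of 379 cells led by Ttr, Clu and Apela was then named extraembryonic endoderm-like, where the joint clustering gave that name to 12 TKO-labelled cells. The names of the endoderm kinds thus depend on the clustering. Within clusters shared by both libraries, with scalings chosen after seeing the data, the ratio of all members with the median of the cluster's genes set to 0 was 0.891 in cardiomyocyte-like, 0.796 in erythroid-like, 0.877 in endothelial-like and 0.878 in naive pluripotent-like cells, and in lateral mesoderm-like cells it reversed from 1.05 to 0.956. With the total that leaves out the gene classes named above it was 0.920 in definitive endoderm-like, 0.824 in erythroid-like, 0.896 in endothelial-like and 0.902 in naive pluripotent-like cells, and reversed to 0.991 in lateral mesoderm-like cells. The cause of these shifts was not tested. Depth limits the isoforms below 50 UMIs and the clusters with few cells of a library.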
